A study of Mus musculus with 3 samples.

Results

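The 10 genes described here, of 53380 features in the deposited matrices, encode enzymes that act on small molecules in fibroblast-like cells of the mouse sciatic nerve. They are Inmt, Sult1a1, Gsta4, Fmo2, Xdh, Hsd11b1, Ptgds, Ptgis, Gpx3 and Dpep1. They were picked by symbol for large differences between intact nerve and the nerve bridge in these same libraries, so the values of intact nerve against bridge chose them and are given below as a description. The label under which they were grouped, enzymes of intact fibroblasts, did not hold for every gene. Summed over annotated cells, Gpx3 and Ptgis were not lower at day 7 than in intact nerve, and the intact level of Ptgds rested on 19 UMIs, all of them from perineurial cells.

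The study sorted Pdgfrb-lineage mesenchymal cells from sciatic nerve and profiled them by droplet single-cell RNA sequencing. All 3 groups carried the R26-TomatoLSL reporter and Pdgfrb-cre/ERT2, a tamoxifen-inducible Cre recombinase expressed where Pdgfrb is active, and TdTomato-positive cells were collected by FACS. One group was intact nerve, and the others were the bridge, the tissue that forms across the gap of an injured nerve, at 7 days and 21 days after injury. Each group was 1 library made from pooled nerves digested with collagenase and hyaluronidase. The reporter marks cells that expressed Pdgfrb when Cre was active, which takes in pericytes and vascular smooth muscle besides fibroblasts. The labels give neither the number of animals nor their age. Myelin-removal beads were used for intact nerve alone, so the bead step and the injury cannot be told apart. With 1 library per group no difference has a replicate check and no test was made. All intervals are 95% intervals and cover counting error only.

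Enzymes of this kind are best known from liver, where one set adds or exposes a reactive group on a small molecule by oxidation and another couples it to a methyl, sulfate or glutathione group. Fibroblasts of many tissues express some of the same enzymes, along with enzymes that activate glucocorticoids, make prostanoids from arachidonic acid, reduce peroxides and split dipeptides. In nerve, fibroblast-like cells occupy the endoneurium around the axons, the perineurium that sheathes each fascicle and the outer epineurium.

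The genes lie on different chromosomes or far apart. In GENCODE M21 on GRCm38, Inmt (ENSMUSG00000003477.5) lies at chr6:55170626-55175043, Fmo2 (ENSMUSG00000040170.13) at chr1:162874317-162898726, Hsd11b1 (ENSMUSG00000016194.14) at chr1:193221634-193264075, Ptgds at chr2:25466709-25470046 and Ptgis at chr2:167191805-167240604, all on the minus strand. Gsta4 at chr9:78182774-78209349, Gpx3 at chr11:54902453-54910377 and Dpep1 (ENSMUSG00000019278.5) at chr8:123186242-123201812 are on the plus strand. Positions of Sult1a1 and Xdh are left out because the annotation's identifier version differed from that of the matrices. RefSeq promoter windows (GRCm38.p6) were matched for 7 of the 10 genes, and Gsta4, Xdh and Ptgis were not among them. The 4 windows printed belong to the 4 genes with the largest fold differences between intact nerve and day 7, and each run is 150 bases outside annotated exons, 5′ to 3′ on the gene's strand, with motif matches in capitals. They are chr6:55175044-55175193 for Inmt, chr7:126676433-126676582 for Sult1a1 and chr1:162898759-162898908 for Fmo2, all on the minus strand, and chr8:123186085-123186234 for Dpep1 on the plus strand.
Inmt: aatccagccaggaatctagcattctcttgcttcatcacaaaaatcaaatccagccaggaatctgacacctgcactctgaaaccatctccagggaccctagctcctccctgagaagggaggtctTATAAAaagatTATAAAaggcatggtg
Sult1a1: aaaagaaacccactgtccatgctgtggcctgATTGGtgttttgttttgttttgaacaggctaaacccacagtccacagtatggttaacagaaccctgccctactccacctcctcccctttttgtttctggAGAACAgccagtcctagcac
Fmo2: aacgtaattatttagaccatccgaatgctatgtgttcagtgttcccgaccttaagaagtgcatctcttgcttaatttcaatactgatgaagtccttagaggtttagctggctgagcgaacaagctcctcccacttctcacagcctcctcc
Dpep1: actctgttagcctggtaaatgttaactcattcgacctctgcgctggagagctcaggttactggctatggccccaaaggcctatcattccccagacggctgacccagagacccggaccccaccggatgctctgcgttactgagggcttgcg
In the Inmt run the capitals mark TATAAA, which begins 80 and 69 bases before the RefSeq start and occurs within the 250 bases before the start in 12.4% of 32619 windows. In the Sult1a1 run they mark CCAAT, read as ATTGG on the other strand at 133 bases and held by 34.0% of windows. The other capitals there mark the glucocorticoid receptor hexamer AGAACA at 34 bases, held by 16.1%, and a further AGAACA lay 212 bases before the start, outside the printed run. The Fmo2 and Dpep1 runs held none of the 7 motifs searched on both strands, which besides these 3 were the xenobiotic response core GCGTG, the antioxidant element TGACNNNGC, the GC box GGGCGG and the AP-1 site TGANTCA. Those 4 occur in 28.3%, 10.2%, 33.0% and 6.78% of windows. The other Fmo2 window held an AGAACA. Among the 8 windows of the 7 genes, 3 held AGAACA, 3 held CCAAT and 1 held TATAAA, and the matched letters did not overlap one another.

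The authors' metadata gave a class to 1343 cells of intact nerve, 1780 at day 7 and 4111 at day 21, with 8371421, 36169912 and 33683464 UMIs and medians of 5667, 19316 and 7442 UMIs per cell. The classes MES_ENDO, MES_EPI and MES_PERI are called endoneurial, epineurial and perineurial here. Markers were compared among these classes, and most were highest in the class so named. In each library this held for all 8 endoneurial, 10 or 11 of 11 epineurial and all 8 perineurial markers. The marker lists were chosen with earlier results of these data known, so these counts are no separate check of the names. The other classes, MES_DIFF, MES_EPI-diff and MES_DIV, are not defined in the labels and keep their names. Class shares differed between libraries. From intact nerve to day 7 and day 21, the endoneurial share was 49.4%, 14.3% and 11.9%, the epineurial share 40.2%, 38.0% and 24.98%, and the perineurial share 8.64%, 13.5% and 50.3%. Libraries shared 1 or 2 annotated barcodes with one another. Levels are given in CPM, UMIs of a gene scaled to the total UMIs, both summed over the annotated cells of a library or of a class. Fewer cells that express a gene and less RNA per cell cannot be told apart in such a sum.

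At day 7, 8 of the 10 enzyme genes were more than 2-fold lower than in intact nerve and none was more than 2-fold higher. Over all 18881 genes measured, 18.1% were lower and 9.41% higher by that margin. Inmt, Sult1a1, Fmo2 and Dpep1 were more than 8-fold lower, as were 2.11% of all genes. At day 21, 4 of the 10 were more than 2-fold lower than in intact nerve, namely Inmt, Xdh, Hsd11b1 and Dpep1, against 11.5% of all genes, and Ptgds was more than 2-fold higher, against 7.62%. Day 21 was more than 2-fold above day 7 for 6 of the 10, which were Inmt, Sult1a1, Gsta4, Fmo2, Ptgds and Dpep1, against 12.9% of all genes, and none was lower, against 9.82%. Of these, Inmt, Sult1a1, Fmo2 and Ptgds were more than 8-fold higher, against 0.846%. The median log2 ratio of the 10 was -2.49 at day 7 and -0.49 at day 21 against intact nerve, and that of all genes was -0.08 and 0.05. The 3 comparisons share their libraries, and the first 2 are those by which the genes were chosen, so nothing is read from these counts.

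**Figure D1:**
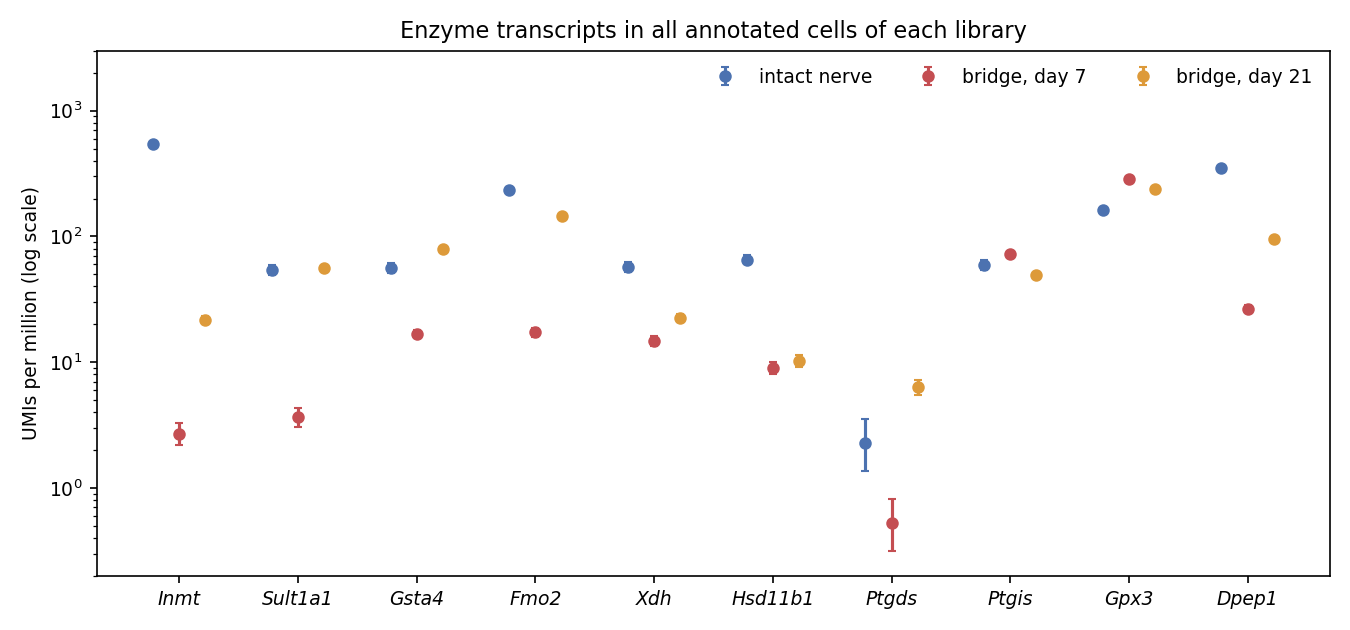
Level of each of the 10 enzyme genes over annotated cells of intact nerve, the day 7 bridge and the day 21 bridge, in CPM on a log axis, with 1 library per group and bars for the exact Poisson 95% interval. Inmt ranges from 540 CPM in intact nerve to 2.68 at day 7, while Ptgis stays between 49.2 and 72.2 CPM.

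Among the conjugating enzymes, Inmt encodes indolethylamine N-methyltransferase, which methylates tryptamine and related amines. Its level was 540 CPM in intact nerve, 2.68 at day 7 and 21.6 at day 21, from 4517, 97 and 728 UMIs. Intact nerve was the high library and the intervals of the 3 libraries did not overlap. Day 7 was 201-fold lower than intact nerve (165 to 249). On the log2 scale this ratio is -7.65, and it was -6.34 with every cell thinned to 2000 UMIs. Day 21 was 24.97-fold lower (23.1 to 27.0). Between the bridge libraries the day 21 level was 8.06-fold higher (6.51 to 10.1), a log2 ratio of 3.00 that was 1.70 in thinned cells. The epineurial class supplied 96.0% of the Inmt UMIs of intact nerve, 84.5% of those at day 7 and 93.3% of those at day 21. Its own level was 1099 CPM in intact nerve, 6.05 at day 7 and 65.9 at day 21, a difference of 182-fold (146 to 229) at day 7 and 16.7-fold at day 21. The day 7 log2 ratio of this class was -7.50 and, in thinned cells, -6.32. In intact nerve it was 42.4-fold above the endoneurial class (34.4 to 52.8). Endoneurial cells held 25.9, 0.268 and 1.38 CPM, the last values from 1 and 6 UMIs, and perineurial cells 45.5, 2.13 and 2.39. At day 21 both classes were below the 3.58 CPM of unclassed barcodes with Schwann markers and were not told apart from background. Over the 14 sums of a class in a library with at least 50 cells, intact epineurial cells stood alone at the top, followed by day 21 epineurial and intact perineurial cells, whose intervals overlapped.

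Sult1a1 encodes a cytosolic sulfotransferase that sulfates phenols. It was at 53.8 CPM in intact nerve, 3.65 at day 7 and 55.8 at day 21, so that day 7 was the low library and the other two overlapped. Day 7 was 14.7-fold below intact nerve (12.1 to 18.0), and the ratio of day 21 to intact nerve was 1.04 (0.936 to 1.15). The class that carried it differed between these libraries: endoneurial cells supplied 46.2% of its UMIs in intact nerve and 4.26% at day 21, and perineurial cells 18.0% and 69.7%. Perineurial cells held 112 CPM in intact nerve, 6.93 at day 7 and 97.9 at day 21, and were 16.1-fold lower at day 7 than in intact nerve. Endoneurial cells held 59.9, 3.75 and 18.4 CPM and epineurial cells 37.5, 4.43 and 25.7. At day 21 Sult1a1 was therefore 3.26-fold below its intact level within the endoneurial class and 1.46-fold below it within the epineurial class. The class mixture was also made alike, by taking endoneurial, epineurial and perineurial levels in equal parts and leaving out the other classes. The log2 ratio of Sult1a1 at day 21 to intact nerve was then -0.56 in place of 0.05. Unclassed barcodes with endothelial markers held Sult1a1 at 101, 19.3 and 87.3 CPM in the 3 libraries.

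Gsta4 encodes an alpha class glutathione transferase that conjugates the lipid peroxidation product 4-hydroxynonenal. Over annotated cells it was at 56.5 CPM in intact nerve, 16.8 at day 7 and 80.0 at day 21. The day 7 level was 3.37-fold below intact nerve (2.98 to 3.80) and the day 21 level 1.42-fold above it (1.28 to 1.57). The day 21 direction turned with the class mixture made alike, where the log2 ratio was -1.24 in place of 0.50. Day 21 was 4.77-fold above day 7, and that log2 ratio was 0.78 in place of 2.25 with the mixture made alike. Gsta4 belonged to perineurial cells, which supplied 67.4%, 62.4% and 87.0% of its UMIs and held 440, 101 and 175 CPM. In intact nerve the perineurial level was 49.2-fold above the endoneurial (34.0 to 73.7) and 14.4-fold above the epineurial level. The 3 perineurial sums were the 3 highest of the 14 and did not overlap one another. Within the class Gsta4 was 4.35-fold lower at day 7 and 2.51-fold lower at day 21 than in intact nerve. The perineurial markers moved with it, since their summed level in that class was 5882, 878 and 3138 CPM and 8 of 8 were lower at day 7, and their part in the result was not tested.

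Other conjugating enzymes were read from lists that were drawn up with earlier results of these data known. Beside the counts of this and the later lists stand the shares over all genes beyond 2-fold. Against intact nerve, 18.1% were lower and 9.41% higher at day 7, and 11.5% lower and 7.62% higher at day 21. Between the bridge libraries, 9.82% were lower and 12.9% higher at day 21. Sulfate, methyl, acetyl and glucuronide conjugation was covered by 12 measured genes besides Inmt and Sult1a1. At day 7, 2 of them were more than 2-fold lower and 2 higher, and their median log2 ratio was 0.11, beside -0.08 for all genes. With genes at 0 UMIs in a library bounded by 3 counts, their median was -0.01 and that of all genes again -0.08. Sult5a1, a sulfotransferase gene, was at 205, 38.4 and 171 CPM in intact nerve, day 7 and day 21. Nnmt, which encodes nicotinamide N-methyltransferase, was higher in both bridge libraries, at 59.3, 130 and 114 CPM. Of 19 glutathione transferases besides Gsta4, 9 were lower and 2 higher at day 7 (median -0.82), and 6 were lower and 3 higher at day 21 (median -0.51). Gstm1 was at 433, 50.1 and 186 CPM and Gstt1 at 153, 24.4 and 49.5, whereas Gsto1 was at 13.9, 60.6 and 30.6. Gstm genes are close copies of one another, so the split of their reads is uncertain.

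**Figure D2:**
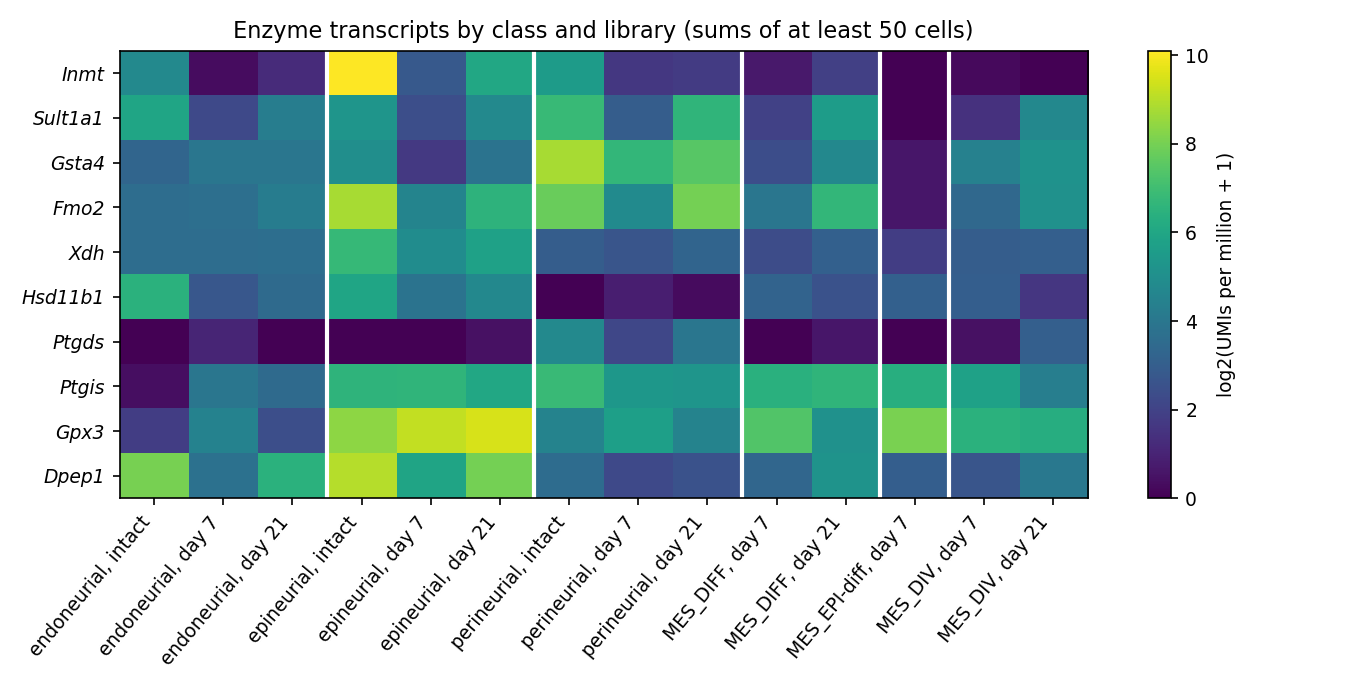
Heat map of log2(CPM + 1) for the 10 enzyme genes (rows) in 14 sums of a class within a library that had at least 50 cells (columns). Inmt, Xdh and Gpx3 are brightest in epineurial columns, Gsta4 and Ptgds in perineurial columns, and Hsd11b1 in the intact endoneurial and epineurial columns.

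Of the oxidising enzymes, Fmo2 encodes a flavin-containing monooxygenase that oxidises nitrogen and sulfur atoms of drugs and other small molecules. Its level was 236 CPM in intact nerve, 17.2 at day 7 and 145 at day 21. All 3 intervals were apart, with day 7 the lowest, 13.7-fold below intact nerve (12.5 to 15.0), and day 21 in between, 1.62-fold below it (1.54 to 1.71). Day 21 was 8.44-fold above day 7. Epineurial cells supplied 88.2% of the UMIs in intact nerve but 19.4% at day 21, when perineurial cells supplied 69.5%. Within the epineurial class Fmo2 was at 441, 22.6 and 92.2 CPM, 19.5-fold lower at day 7 and 4.78-fold lower at day 21 than in intact nerve. Perineurial cells held 223, 27.7 and 255 CPM, so that their day 21 level was 9.19-fold above day 7 and 1.14 times the intact level, with an interval of 0.974 to 1.34. The endoneurial class was low in every library, at 11.2, 11.8 and 17.7 CPM, and in intact nerve the epineurial level was 39.2-fold above it (28.6 to 55.4). Unclassed barcodes with pericyte and smooth muscle markers held 11.7 CPM in intact nerve. Those with Schwann markers held 0.917 at day 7 and 22.7 at day 21. The endoneurial level was thus not told apart from background in intact nerve and at day 21. Unclassed barcodes with endothelial markers also held Fmo2, at 286 CPM in intact nerve, 29.0 at day 7 and 139 at day 21.

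Xdh encodes xanthine dehydrogenase, which forms uric acid at the end of purine breakdown. It was at 57.5 CPM in intact nerve, 14.8 at day 7 and 22.6 at day 21, from 481, 534 and 761 UMIs, with intact nerve the high library. Day 7 was 3.89-fold lower (3.43 to 4.41), and its log2 ratio of -1.96 became -1.35 in cells thinned to 2000 UMIs. At day 21 it was 2.54-fold lower, and with the class mixture made alike the log2 ratio was -0.79, inside the 2-fold limit. Day 21 stood 1.53-fold above day 7, which was a log2 ratio of -0.08 in thinned cells. Xdh was an epineurial transcript, with 89.4%, 74.5% and 72.4% of its UMIs from that class and levels there of 109, 29.4 and 53.5 CPM. The 3 epineurial sums were the 3 highest of the 14 and lay apart. Endoneurial cells held 11.2, 11.2 and 11.7 CPM with overlapping intervals, and perineurial cells 6.89, 5.33 and 8.67, the first from 5 UMIs. At day 7 unclassed barcodes with myeloid markers held Xdh at 46.2 CPM, above the epineurial level.

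The wider list of oxidising and reducing enzymes was more than 2-fold lower at day 7 for 20 of 36 measured genes besides Fmo2 and Xdh and higher for 2 (median log2 ratio -1.79). At day 21, 18 of 35 were lower and 0 higher (median -1.18). The alcohol dehydrogenase gene Adh1 was at 115 CPM in intact nerve, 3.87 at day 7 and 8.88 at day 21. Cyp26b1, which encodes a retinoic acid hydroxylase, was at 87.4, 7.58 and 10.9 CPM, and the mitochondrial aldehyde dehydrogenase gene Aldh2 at 351, 78.8 and 197. Aldh1a3, a retinaldehyde dehydrogenase gene that is also in the injury marker list, went the other way at 26.5, 285 and 35.2 CPM. In the purine list, 5 of 16 genes besides Xdh were lower and 2 higher at day 7 (median -0.16). Among the lower were Nt5e, the 5′-nucleotidase that makes adenosine, at 28.0, 5.39 and 9.14 CPM, and Entpd1, an ectonucleotidase gene, at 22.5, 1.85 and 2.46.

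Hsd11b1 encodes the 11-beta-hydroxysteroid dehydrogenase that regenerates active glucocorticoid from its inactive 11-keto form inside cells. It was at 65.5 CPM in intact nerve, 8.96 at day 7 and 10.2 at day 21. Both bridge libraries were below intact nerve and overlapped each other. Day 7 was 7.31-fold lower (6.36 to 8.41) and day 21 6.43-fold lower, which was a log2 ratio of -2.04 in place of -2.68 with the class mixture made alike. The ratio of day 21 to day 7 was 1.14 (0.974 to 1.33). It was the only one of the 10 whose highest class sum was endoneurial, at 87.6 CPM in intact nerve, 1.45-fold above the epineurial level (1.22 to 1.73). Endoneurial cells went from 55.5% of its UMIs in intact nerve to 6.48% at day 7 and 13.1% at day 21, and held 5.62 and 10.3 CPM there, 15.6-fold and 8.47-fold lower. Epineurial cells held 60.3, 13.4 and 25.4 CPM, 4.49-fold lower at day 7 and 2.37-fold lower at day 21. Perineurial cells had 0, 3 and 3 UMIs in the 3 libraries. A count of 0 in intact perineurial cells allows a level of up to 5.09 CPM.

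Besides Hsd11b1, 16 genes of the glucocorticoid axis were measured, among them the receptor and some of its response genes. Of these, 4 were more than 2-fold lower and 0 higher at day 7 (median log2 ratio -0.34), and 2 were lower and 0 higher at day 21 (median -0.19). Between the bridge libraries 5 were higher at day 21 and 0 lower. The receptor gene Nr3c1 was at 144 CPM in intact nerve, 71.9 at day 7 and 183 at day 21. Tsc22d3, a glucocorticoid-induced leucine zipper gene, was at 139, 30.1 and 86.5 CPM. Both had their lowest level at day 7, whereas the day 7 and day 21 levels of Hsd11b1 overlapped.

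Ptgds and Ptgis both act on prostaglandin H2. Ptgds encodes the lipocalin-type synthase that makes prostaglandin D2, and its level was 2.27 CPM in intact nerve, 0.525 at day 7 and 6.32 at day 21, from 19, 19 and 213 UMIs. Day 21 was the high library over annotated cells, 2.79-fold above intact nerve (1.74 to 4.72) and 12.0-fold above day 7. Perineurial cells supplied all of these UMIs in intact nerve, 68.4% at day 7 and 92.0% at day 21, and within that class the order was different, with 26.2 CPM in intact nerve, 3.47 at day 7 and 14.7 at day 21. There day 7 was 7.56-fold lower than intact nerve (3.54 to 16.7) and day 21 1.79-fold lower, and day 21 was 4.23-fold above day 7. With the class mixture made alike, the log2 ratio of day 21 to intact nerve was -0.83 in place of 1.44. This restates the perineurial log2 ratio of -0.87 and is no separate check, because the other classes of the mixture held almost no Ptgds UMIs. Endoneurial cells had 0 UMIs in intact nerve and at day 21, and epineurial cells 0 in intact nerve and at day 7 and 4 at day 21.

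Ptgis encodes prostacyclin synthase. Its level over annotated cells was 59.5 CPM in intact nerve, 72.2 at day 7 and 49.2 at day 21, so the libraries lay within 1.21-fold of intact nerve in either direction. The day 7 direction was not stable, with a log2 ratio of 0.28 that was -0.49 with the class mixture made alike and -0.10 over every barcode. The -0.49 gives perineurial cells the same weight as the other classes in the mixture. Their intact level was 114 CPM, and 42.3 without cells rich in pericyte and smooth muscle markers, which the mixture kept. Epineurial cells, with 75.5% of the intact UMIs, held 95.2, 95.6 and 66.0 CPM, and intact nerve and day 7 overlapped there. The MES_DIFF class held 84.8 CPM at day 7 and 96.4 at day 21.

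Ptgis in the remaining classes went in opposite directions. Endoneurial cells held 0.288 CPM in intact nerve from 1 UMI, 14.7 at day 7 and 10.1 at day 21, ratios of 51.1 (8.79 to 2054) and 35.1 that rest on that 1 UMI. At 2000 UMIs per cell, 0.784% of day 7 endoneurial cells had a Ptgis UMI (10.98% before thinning), against 1.84% (5.83%) of Schwann-marker barcodes. These barcodes held Ptgis at 8.26 CPM, with an interval that overlapped the endoneurial one, so endoneurial Ptgis at day 7 was not told apart from background. Perineurial cells held 114, 40.0 and 37.3 CPM, 2.86-fold and 3.07-fold lower than in intact nerve. That difference went with vascular markers: the pericyte and smooth muscle list summed to 1959 CPM in intact perineurial cells, 250 at day 7 and 153 at day 21, although 4 of its 8 genes (Rgs5, Kcnj8, Abcc9 and Des) were at 0 in intact perineurial cells. Unclassed intact barcodes with those markers held Ptgis at 122 CPM. Without perineurial cells rich in these markers, a limit chosen after seeing the data that left 92 of 116 intact cells, the levels were 42.3, 39.9 and 35.9 CPM.

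The other genes of prostanoid synthesis and breakdown had a median log2 ratio near that of all genes at day 7, and the receptors a lower one. Of 12 measured genes of synthesis and breakdown besides Ptgds and Ptgis, 2 were more than 2-fold lower and 2 higher at day 7 (median -0.04). With genes at 0 UMIs bounded by 3 counts, that median was -0.14. Of 11 at day 21, 3 were lower and 1 higher (median -0.06). Ptgs2, which encodes the inducible cyclooxygenase, was at 71.2 CPM in intact nerve, 180 at day 7 and 98.0 at day 21. The prostaglandin E synthase gene Ptges was at 78.5, 23.8 and 18.6 CPM, and Hpgd, whose product inactivates prostaglandins, at 23.5, 6.75 and 8.05. Among 8 prostanoid receptors 3 were lower and 1 higher at day 7 (median -0.55), and 2 were lower and 2 higher at day 21 (median -0.43). Ptgfr, the prostaglandin F receptor gene, was at 29.4, 5.28 and 6.83 CPM.

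Gpx3 encodes the secreted glutathione peroxidase, a selenoprotein of plasma and extracellular fluid. Its level was 162 CPM in intact nerve, 287 at day 7 and 239 at day 21, so both bridge libraries were above intact nerve, by 1.77-fold (1.68 to 1.88) and 1.48-fold. The 3 libraries did not overlap. Epineurial cells supplied 97.5%, 75.4% and 92.7% of its UMIs and held 335, 578 and 724 CPM, 1.73-fold higher at day 7 and 2.16-fold higher at day 21 than in intact nerve. In intact nerve the epineurial level was 129-fold above the endoneurial (67.8 to 283). Endoneurial cells held 2.59, 21.1 and 4.37 CPM and perineurial cells 22.1, 51.7 and 22.1, with the day 7 sum the highest in each. At day 7 barcodes with pericyte and smooth muscle markers held Gpx3 at 254 CPM. The perineurial day 7 log2 ratio was 1.19 and, in cells thinned to 2000 UMIs, 0.46. Schwann-marker barcodes of day 7 held Gpx3 at 53.7 CPM, above both the endoneurial and the perineurial level of that library. The day 7 perineurial level was itself 2.45-fold above the endoneurial one (1.87 to 3.22). Whether these day 7 levels are background was not tested. Without the perineurial cells rich in smooth muscle markers the perineurial levels were 12.9, 45.5 and 22.04 CPM.

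Dpep1 encodes a membrane dipeptidase that splits cysteinyl-glycine from glutathione breakdown and converts leukotriene D4. It was at 351 CPM in intact nerve, 26.6 at day 7 and 96.1 at day 21, with no overlap among the libraries. Day 7 was 13.2-fold lower than intact nerve (12.3 to 14.2), day 21 was 3.65-fold lower and day 21 was 3.61-fold above day 7. The day 21 log2 ratio was -1.87 and moved to -1.17 with the class mixture made alike. Epineurial cells held 506, 58.2 and 256 CPM, 8.70-fold lower at day 7 and 1.98-fold lower at day 21. Endoneurial cells held 263, 12.6 and 85.7 CPM, 20.9-fold and 3.06-fold lower. Perineurial cells held 11.03, 3.73 and 4.79 CPM, and in intact nerve the epineurial level was 45.9-fold above theirs. The endoneurial level of intact nerve overlapped the epineurial level of day 21.

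Of 29 measured genes of glutathione synthesis and peroxide removal besides Gpx3 and Dpep1, 4 were more than 2-fold lower and 3 higher at day 7 (median log2 ratio 0.14). At day 21, 2 of 28 were lower and 0 higher (median -0.09). Selenop, which encodes a selenium transport protein, was at 660, 265 and 459 CPM, and the thioredoxin reductase gene Txnrd1 at 36.2, 82.7 and 61.3. Gpx3 and Txnrd1 were thus above intact nerve in both bridge libraries, and Selenop and Dpep1 below it.

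Within classes the counts of genes beyond 2-fold were as follows, again for the contrast that chose them. In endoneurial cells at day 7, 4 of 10 measured genes were lower (Inmt, Sult1a1, Hsd11b1 and Dpep1), against 14.5% of all genes, and 2 were higher (Ptgis and Gpx3), against 11.5%. Day 21 endoneurial cells had the lower group again, 4 of 9 against 10.4% of all genes, with Ptgis higher against 7.86%. In epineurial cells 7 of 9 were lower at day 7, against 15.2%, Gpx3 and Ptgis were the exceptions, and none was more than 2-fold higher, against 7.59%. At day 21, 5 of 10 were lower there (Inmt, Gsta4, Fmo2, Xdh and Hsd11b1), against 10.2%, and Gpx3 was higher, against 5.72%. This epineurial count was 2 when the whole 95% interval had to lie beyond 2-fold. Xdh, 2.04-fold lower, was inside 2-fold with median-of-ratios scaling, at a log2 ratio of -0.95. Perineurial cells had 7 of 9 lower at day 7, against 18.8%, and Gpx3 higher, against 9.46%. They had 4 of 9 lower at day 21 (Inmt, Gsta4, Ptgis and Dpep1), against 16.2%, and none higher, against 5.36%. Ptgis left the perineurial group without the cells rich in smooth muscle markers.

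**Figure D3:**
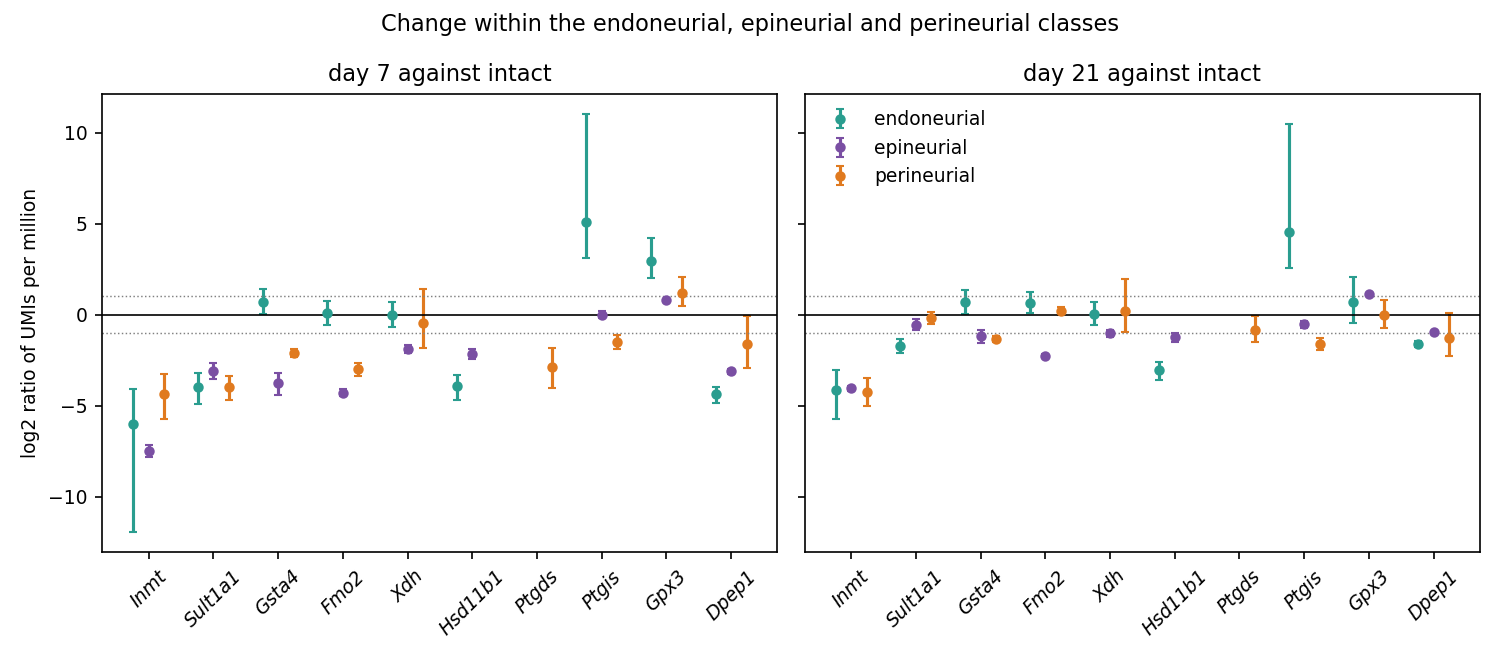
Log2 ratio of each enzyme gene against intact nerve within the endoneurial, epineurial and perineurial classes, at day 7 and at day 21, with exact conditional binomial 95% intervals and dotted lines at 2-fold. Genes at 0 UMIs in a group or not measured are left out. In epineurial cells Inmt lies lowest, 182-fold below intact nerve at day 7, and Gpx3 is above 0 at both times.

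Day 21 exceeded day 7 by more than 2-fold for 3 endoneurial genes, Inmt, Sult1a1 and Dpep1 (8.95% of all genes), 5 epineurial genes (9.89%) and 3 perineurial genes, Sult1a1, Fmo2 and Ptgds (9.39%). Endoneurial Inmt rested on 6 UMIs against 1, and its log2 ratio of 1.90 turned to -0.93 in thinned cells. Endoneurial Sult1a1 at day 21, at 18.4 CPM, was below the 23.7 CPM of Schwann-marker barcodes and was not told apart from background. In the other direction Gpx3 was lower at day 21 in endoneurial cells (8.79%) and in perineurial cells (9.21%). Its day 7 level in both was at or below that of Schwann-marker barcodes, and whether it is background was not tested. No gene of the 10 was lower at day 21 by that margin in epineurial cells (6.99%). The MES_DIFF class, with 308 cells at day 7 and 387 at day 21, had 5 of 9 genes higher at day 21, against 13.5% of all genes. Sult1a1 was there at 2.87 CPM at day 7 and 47.3 at day 21, a 16.5-fold higher level, Fmo2 at 14.7 and 101, Gsta4 at 4.25 and 25.1 and Dpep1 at 8.996 and 35.5. Gpx3 was lower at day 21 in this class, at 164 and 33.5 CPM, 4.91-fold apart, against 8.40% of all genes. The MES_DIV class, with 206 and 119 cells, held Sult1a1 at 1.74 and 25.6 CPM, Fmo2 at 9.66 and 33.7 and Ptgis at 53.3 and 18.9. In the 94 MES_EPI-diff cells of day 7, Gpx3 was at 264 CPM and Ptgis at 80.6. Inmt and Sult1a1 had 0 UMIs there, which allows up to 1.88 CPM.

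Cell by cell, shares were read at 2000 UMIs per cell, which left out no annotated cell. Median depths of epineurial cells were 6936.5, 19883.5 and 9666 UMIs in intact nerve, day 7 and day 21. An Inmt UMI was seen in 63.9% of intact epineurial cells (59.7 to 68.0), 1.48% at day 7 and 9.45% at day 21, and in 80.7%, 4.14% and 20.1% before thinning. The comparison barcodes in intact nerve were unclassed barcodes with pericyte and smooth muscle markers (268 barcodes, median 5591.5 UMIs). Those at day 7 (326, 12617 UMIs) and day 21 (1492, 5829.5 UMIs) had Schwann markers. The cell type compared thus differed between libraries, and intact nerve had 5 Schwann-marker barcodes. Of the comparison barcodes, 0.746%, 0% and 0.670% had an Inmt UMI, which was below the epineurial share in intact nerve and at day 21. Barcodes with pericyte and smooth muscle markers had one in 0.260% at day 7 and 0% at day 21. The 0 of 326 at day 7 has an upper limit of 1.12%. This overlaps the epineurial interval of 0.712% to 2.70%, so no order is read from the day 7 shares. The day 7 levels lay apart, at 6.05 CPM in epineurial cells (from 4.82) and 0 in the Schwann-marker barcodes (up to 0.846). The 82 epineurial UMIs came from 28 of 676 cells, and the interval takes no account of such clustering by cell.

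Other epineurial shares followed the levels. Fmo2 was seen in 43.0%, 4.88% and 14.8% of epineurial cells at equal depth (60.6%, 18.9% and 38.1% before thinning), against 0.746%, 0.614% and 2.01% of the comparison barcodes. Dpep1 was seen in 53.9%, 11.7% and 39.0% (83.9%, 42.2% and 77.4%), against 1.12%, 0.920% and 1.01%. Gpx3 was seen in 25.7%, 51.8% and 42.6% (39.8%, 83.1% and 63.3%), against 2.61%, 7.67% and 1.81%, so more epineurial cells had a Gpx3 UMI in the bridge than in intact nerve. Epineurial Sult1a1 at day 7, seen in 1.04% of cells (8.28% before thinning), was below the 1.84% of Schwann-marker barcodes, while its level of 4.43 CPM was above their 3.44, so no order is read from it. Epineurial Gsta4 at day 7 was below these barcodes by both measures, at 0.740% (3.55%) against 3.07% and at 2.22 CPM against 5.96. It was thus not shown to exceed background. At day 21 epineurial Gsta4 was below the Schwann-marker barcodes by level, at 13.4 CPM against 18.7, and above them by share, at 2.24% against 1.94%. Barcodes with pericyte and smooth muscle markers were above it by both measures at day 21, at 37.5 CPM and 8.27%. No order is read from the day 21 values of epineurial Gsta4.

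Gsta4 was seen in 48.3%, 17.4% and 25.5% of perineurial cells at equal depth (71.5%, 52.3% and 51.9% before thinning), against 4.10%, 3.07% and 1.94% of the comparison barcodes, at perineurial medians of 5291, 15443 and 5829 UMIs. Perineurial Sult1a1 was seen in 23.3%, 1.25% and 18.1% (45.7%, 8.71% and 42.1%), against 5.97%, 1.84% and 3.48%. No order is read from its day 7 share, since its level of 6.93 CPM was above the 3.44 of the comparison barcodes. Barcodes with pericyte and smooth muscle markers at day 21 had Sult1a1 in 13.9% and Gsta4 in 8.27%. Both lay above the Schwann-marker shares and below the perineurial ones. The Hsd11b1 share of endoneurial cells was 14.2%, 0.784% and 2.67% (28.8%, 3.53% and 6.78%), against 2.24%, 0.920% and 0.201%, at endoneurial medians of 4779, 15143 and 8649 UMIs. Its day 7 share lay below the comparison barcodes and its day 7 level, 5.62 CPM, above their 1.38, so no order is read there either. Cells with a UMI of none of the 10 genes made up 5.37% of epineurial cells in intact nerve, 30.8% at day 7 and 18.1% at day 21, and 47.4%, 85.1% and 73.9% of endoneurial cells. In the perineurial class the figures were 21.6%, 65.6% and 35.9%.

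**Figure D4:**
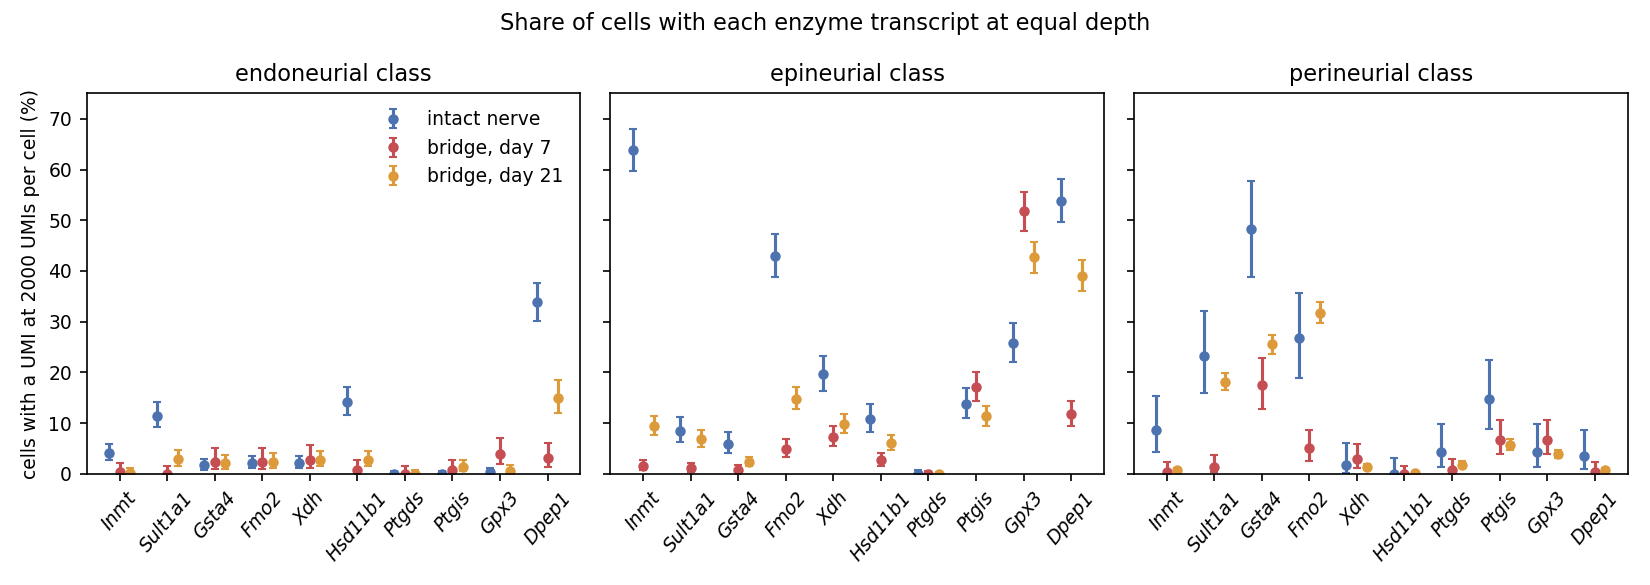
Percent of cells with at least 1 UMI of each enzyme gene after every cell was thinned to 2000 UMIs, in the endoneurial, epineurial and perineurial classes of the 3 libraries, with Clopper-Pearson 95% intervals. Inmt is at 63.9% of epineurial cells in intact nerve and 1.48% at day 7, and Gpx3 goes from 25.7% to 51.8%.

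Within the epineurial class the genes were not spread alike. Pi16 marks a set of epineurial fibroblasts. A split of cells by a Pi16 UMI, chosen after the data were seen, gave 214 intact cells with and 326 without one. Cells without a Pi16 UMI can include cells that express Pi16, so the groups may not match between libraries. At equal depth Inmt was at 886 CPM in intact cells with Pi16 and 1425 in those without, and Fmo2 at 304 and 617. Hsd11b1 was at 44.4 and 89.0, with overlapping intervals. Gpx3 was the other way round, at 453 and 227 CPM. At day 21, with 424 and 603 cells, Fmo2 was at 57.8 and 130 CPM and Gpx3 at 849 and 584, in the same order as in intact nerve, while the intervals overlapped for Inmt, at 76.7 and 68.8 CPM, and for Hsd11b1, at 35.4 and 32.3. At day 7, with 280 and 396 cells, the intervals overlapped for these 4 genes. Fmo2 was at 17.9 and 35.4 CPM there and Gpx3 at 688 and 602. Of the other genes, Xdh lay apart at day 7, at 58.9 CPM in cells with Pi16 and 23.99 in those without. Its intervals overlapped in intact nerve and at day 21. Sult1a1, at 20.05 and 47.3 CPM, and Ptgis, at 87.3 and 48.1, lay apart at day 21 alone. Gsta4 and Dpep1 overlapped in every library.

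Across the 14 sums, pairs of the 10 genes were compared by Pearson's r of log2(CPM + 1) as a description, since the sums share libraries, depth and cells of like origin. Of 45 pairs the highest were Gsta4 with Ptgds (0.84), Hsd11b1 with Dpep1 (0.83), Xdh with Dpep1 (0.81) and Sult1a1 with Fmo2 (0.81), and the lowest was Hsd11b1 with Ptgds (-0.82). Among 4506 genes with at least 50 CPM in at least 1 sum, the 3 of highest r were taken for each enzyme gene, and 2 of the 3 are given for Inmt, Sult1a1 and Fmo2. For Inmt these were Ppt1 (0.944) and Tapbp, for Sult1a1 Cr1l (0.960) and Xiap, for Gsta4 Vps13a (0.964), Paqr6 and Lrrc8d, for Fmo2 C2 (0.921) and Tmeff2, and for Xdh C4b (0.950), Lmo2 and Csf1. For Hsd11b1 they were Nav1 (0.939), Cxcl12 and Serpinf1, for Ptgds Ankrd33b (0.948), Ntng1 and Perp, for Ptgis Chrdl1 (0.884), Pmepa1 and Spon2, for Gpx3 Olfml2b (0.938), Ccdc80 and Galnt16, and for Dpep1 Pid1 (0.952), Podn and Smpd3.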

How the data were processed

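Values in the deposited matrices were UMI counts, whole numbers that the authors had not normalized. They were made with Cell Ranger 6.1.2, per the file headers. The submitters' processing notes also name Cell Ranger 3.0.2, Seurat 4.0.1, mm10 and GRCm38. How cells were filtered is not given in the sources used here. A metadata table of the authors gave library and class, per the file headers; 7234 of 7235 listed cells were found among 14703 barcodes, and 1 was not. No doublet caller was run.

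UMIs were summed per library and class and expressed as CPM, with exact Poisson intervals. Folds are ratios of CPM with exact conditional binomial intervals. Log2 ratios added 0.5 counts to each sum, and in bounded ratios and medians a level at 0 UMIs is set to 3 counts. Upper limits given for levels at 0 UMIs are those of the Poisson interval. A gene was measured with more than 3 UMIs in either sum, and all 10 enzyme genes were so over annotated cells. Shares carry Clopper-Pearson intervals, with cells thinned to 2000 UMIs. The confidence level was 95%. No test was made.

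The 10 genes and all lists were chosen with earlier results of these data known. Named beside the 10 were up to 4 genes per pathway list and comparison with the largest ratio and at least 20 CPM, not all of which are printed, and the 3 genes of highest r per enzyme gene, of which 3 in all are not reported here. The pathway lists cover sulfate and methyl conjugation, glutathione transferases, oxidation and reduction, prostanoid synthesis, prostanoid receptors, the glucocorticoid axis, glutathione and peroxides, and purines. Unclassed barcodes were put to the endothelial, Schwann, myeloid or pericyte and smooth muscle marker list with the most UMIs, at least 5 from at least 2 genes. Alternatives were median-of-ratios scaling, equal weight per cell, thinned cells, every barcode, 1 class mixture (endoneurial, epineurial and perineurial levels in equal parts), 1 count added, no filter on low counts and calls on whole intervals. Scripts ran under Python 3.11.15 with numpy 2.4.6, scipy 1.17.1, pandas 2.3.3 and matplotlib 3.10.9 and were tested on simulated data.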

Additional observations from a re-analysis of the deposited data

Results flagged for a closer look

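Ptgis stood in opposite directions in 2 classes. Against intact nerve its day 7 log2 ratio was 5.10 in endoneurial cells and -1.52 in perineurial cells, and its day 21 log2 ratio was 4.56 and -1.62. The difference between the classes was not tested, because each group was 1 library. The endoneurial values rest on 1 intact UMI, and the day 7 endoneurial level of 14.7 CPM overlapped the 8.26 CPM of Schwann-marker barcodes. Without perineurial cells rich in pericyte and smooth muscle markers, the perineurial values were -0.11 and -0.27.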

How the results depend on the processing

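No paired analysis was possible because each group was 1 library, and for the same reason no replicate could be left out. Over 510 comparisons of a gene's log2 ratio with an alternative, 376 stayed within its counting interval. Among ratios beyond 2-fold, 2 turned direction, and among ratios within 2-fold 22 changed sign, those of Gsta4, Ptgis, Sult1a1 and Xdh over annotated cells among them. The first of the 2 beyond 2-fold was Ptgds at day 21 against intact nerve over annotated cells, -0.83 in place of 1.44 with 1 class mixture. For Ptgds that mixture restates the perineurial ratio, since its other classes held almost no Ptgds UMIs. The other was Inmt at day 21 against day 7 in endoneurial cells, -0.93 in place of 1.90 in thinned cells, from 6 and 1 UMIs before thinning. The number of epineurial genes more than 2-fold lower at day 21 was 5, and 2 when the whole interval had to lie beyond 2-fold, which asks more of each gene by construction. The 8 genes lower at day 7 over annotated cells were the same genes under each alternative scaling, weighting, thinning, set of cells or filter run. Of the 4 lower at day 21, 3 remained with 1 class mixture, where Xdh was inside 2-fold and Gsta4 beyond it. Median-of-ratios scaling shifted the median of all genes by 0.16 at day 7 against intact nerve and by -0.14 at day 21 against day 7 over annotated cells, and turned no called direction among the 10 genes. Leaving out MES_DIV and leaving out perineurial cells rich in smooth muscle markers were chosen after seeing the data. Low counts limit Ptgds in intact nerve and at day 7, Hsd11b1 in perineurial cells and Inmt in endoneurial cells of the bridge.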
